A study of Mus musculus with 2 samples.

Results

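The interferon-stimulated gene module is a list of 39 genes that cells switch on in response to interferon. Its members were chosen by gene symbol, and 38 of the 39 were matched among the 32285 features of the count matrices, while Mx1 was not analysed here. The cells were YFP+ thymus cells sorted in a control group of genotype Tbx21Cre Rosa26-YFP+ and a cKO group of genotype Tbx21Cre Ets1F/F Rosa26-YFP+, in which the same Cre also acts on floxed Ets1. Cre is driven by Tbx21, the gene of T-bet, so that YFP marks any cell that has expressed T-bet. Both groups carry Cre and the reporter, and no age is given. Each genotype gave 1 library pooled from 2 mice, so there is no replicate check, no test and no p-value, and each difference is between these 2 libraries. The 95% intervals are exact and cover no error beyond that of counting.

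Type I interferons bind a receptor built of Ifnar1 and Ifnar2, whose kinases Jak1 and Tyk2 activate STAT factors. STAT2 and IRF9 are part of a complex that binds the interferon-stimulated response element (ISRE) before the genes it induces. Some members, such as Irf7 and the sensors Ddx58 (RIG-I) and Ifih1 (MDA5), feed back on the pathway, whereas Usp18 restrains it. In the thymus a steady low level of type I interferon is known to keep part of this programme on in maturing T cells.

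To show what the members share before their starts, the RefSeq windows (GRCm38.p6) of 300 bases, from 250 before to 50 after each gene's start, were searched on both strands. A window was found for 31 of the 38 members. The ISRE core, written GAAANNGAAA, was in 20 of the 31 (64.5%), against 3.99% of 27025 genes in the table. The GAS motif (gamma-activated site), written TTCNNNGAA, was in 5 of the 31 (16.1%) against 9.55% of all. The ETS core in the form CCGGAAG was in 3 of the 31 (9.68%) against 9.93%. A match is a description of letters and not a site of binding. The 200 bases before the start are printed for 2 genes of the Ifit cluster and Isg15, for 3 members that were among the lowest in cKO T cells relative to control (Ifi208, Ifi213 and Slfn5), for Ifi44, which had the lowest ratio of all members in T cells, and for Oasl2, the only member past the size rule in the higher direction in T cells. All are written 5′ to 3′ on the gene's strand, with ISRE matches on either strand in capitals.
Ifit1 (chr19:34640689-34640888, plus strand): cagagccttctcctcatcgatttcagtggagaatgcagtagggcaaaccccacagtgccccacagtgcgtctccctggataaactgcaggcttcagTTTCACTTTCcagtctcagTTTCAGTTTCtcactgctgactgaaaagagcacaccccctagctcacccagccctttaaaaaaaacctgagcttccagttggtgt
Ifit3 (chr19:34583329-34583528, plus strand): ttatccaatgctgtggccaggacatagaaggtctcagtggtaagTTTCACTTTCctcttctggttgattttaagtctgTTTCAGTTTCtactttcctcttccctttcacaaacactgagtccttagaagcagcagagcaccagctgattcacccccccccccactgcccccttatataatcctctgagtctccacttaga
Isg15 (chr4:156200819-156201018, minus strand): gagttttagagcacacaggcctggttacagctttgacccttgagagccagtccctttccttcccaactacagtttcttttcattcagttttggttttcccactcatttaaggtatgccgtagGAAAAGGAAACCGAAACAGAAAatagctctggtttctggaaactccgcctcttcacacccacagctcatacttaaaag
Ifi208 (chr1:173673465-173673664, plus strand): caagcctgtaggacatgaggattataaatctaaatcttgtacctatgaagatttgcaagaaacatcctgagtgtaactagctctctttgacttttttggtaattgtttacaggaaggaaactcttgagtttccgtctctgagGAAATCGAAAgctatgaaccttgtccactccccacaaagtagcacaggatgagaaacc
Ifi213 (chr1:173599273-173599472, minus strand): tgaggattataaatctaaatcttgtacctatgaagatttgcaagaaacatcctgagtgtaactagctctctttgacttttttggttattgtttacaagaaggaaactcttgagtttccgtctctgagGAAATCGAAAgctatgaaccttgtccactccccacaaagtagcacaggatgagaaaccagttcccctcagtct
Slfn5 (chr11:82951902-82952101, plus strand): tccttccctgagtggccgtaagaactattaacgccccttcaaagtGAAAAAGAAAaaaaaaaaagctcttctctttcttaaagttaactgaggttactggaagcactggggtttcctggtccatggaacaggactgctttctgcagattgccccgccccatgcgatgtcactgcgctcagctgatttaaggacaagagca
Ifi44 (chr3:151749911-151750110, minus strand): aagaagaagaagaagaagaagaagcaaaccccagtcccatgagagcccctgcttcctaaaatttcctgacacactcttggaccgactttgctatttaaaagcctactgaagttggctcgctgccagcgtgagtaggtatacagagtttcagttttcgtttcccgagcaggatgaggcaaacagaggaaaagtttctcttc
Oasl2 (chr5:114896734-114896933, plus strand): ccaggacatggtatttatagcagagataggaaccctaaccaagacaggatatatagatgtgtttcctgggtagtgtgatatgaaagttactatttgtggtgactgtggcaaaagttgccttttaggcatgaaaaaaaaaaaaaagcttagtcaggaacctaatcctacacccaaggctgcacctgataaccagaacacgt
Ifit1 and Ifit3 each carry 2 ISRE matches and Isg15 carries 3 that overlap. Ifi208 and Ifi213 each carry 1, in identical sequence around the match. The longest identical run of their windows, of 135 bases, ends before it. So does the run of 182 bases that the windows of Ifi208 and Ifi206 share. Slfn5 carries 1 match, and Ifi44 and Oasl2 carry none. By group in T cells, the ISRE was in 6 of the 8 lower members with a window and in 10 of the 16 that were neither higher nor lower, while the ETS form was in 0 of the 8 and 1 of the 16.

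The 6 PYHIN members (Ifi203, Ifi204, Ifi206, Ifi208, Ifi209 and Ifi213), which encode sensors of nucleic acids and related proteins, lie side by side on chromosome 1, from 173468485 to 173942672 on GRCm38. Reads of relatives in 1 family, here and for Ifit3 and Ifit3b on chromosome 19, may be hard to assign to 1 gene. How such reads were counted is not given in the sources used here, so levels of single family members are uncertain.

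The control matrix held 10102 barcodes with 35210431 UMIs (unique molecule tags, 1 per captured transcript) and the cKO matrix 11206 barcodes with 39979742 UMIs. Of these, 7395 control and 5903 cKO cells had at least 500 genes and at most 10% mitochondrial UMIs. They were classed by transcripts as T cells, CD8 T cells, NK cells, B cells and Rag1+ cells of double-positive (DP) thymocyte type. The T class, with CD3 and without Cd8b1, held 6000 control and 2821 cKO cells at medians of 2660 and 6687 UMIs. Ets1, the targeted gene, stood at 531 and 172 CPM in T cells, where CPM is the share of a gene in all UMIs of the class, brought to 1 common scale, and was also lower in the cKO library in CD8 T, NK and B cells but not in DP cells (489 and 658 CPM). Pairs of values that compare the libraries are given with control first throughout. The libraries read 3′ ends and the labels do not name the floxed exons, and whether these reads fall in the deleted part is not known. The labels call the cells iNKT1, and a UMI of Trav11, the segment of the invariant receptor, was held by 160 of the control and 136 of the cKO T cells. Gut epithelium genes made up 6.57 CPM of control T cells and 876 CPM of cKO T cells, and 29 barcodes were shared between the libraries. Their part in the results was not tested.

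In T cells the module made up less of the RNA in the cKO library. Its summed UMIs gave 2421 CPM (2402 to 2440) for control and 1859 CPM (1840 to 1878) for cKO, 1.3-fold lower (1.29 to 1.32). The median T cell had a module level of 1712 CPM in control, against 1155 CPM in cKO. No single gene carried the module: Ifi203 gave the most UMIs in both libraries, 10.6% of the control and 8.62% of the cKO module UMIs, and the 8 highest members together gave 44.4% and 45.6%. The PYHIN members gave 27.3% and 21.1%, and without them the other 32 members stood at 1759 and 1466 CPM.

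The size rule asked of a member a ratio of CPM of 1.5 or more either way, a level of at least 20 CPM in the library where it was higher, and a ratio interval without 1. In T cells 28 of the 38 members reached 20 CPM, of which 9 were lower in cKO and 1 higher, while 18 were neither. Over all 5968 genes that reached 20 CPM, 5.09% were lower and 13.2% higher. The median log2 ratio, cKO over control, was -0.16 for these members and 0.17 for all genes. The level of all genes moved with the scaling. A total without mitochondrial and ribosomal protein genes gave a median over all genes of -0.02, and median-ratio scaling gave 0.01. Of all genes past the rule, those higher in cKO made up 72.1% with the plain total, and 47.1% and 49.5% with these scalings in turn. Of the 38 members, 32, 35 and 35 had a log2 ratio below 0 under the 3 scalings.

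**Figure D1:**
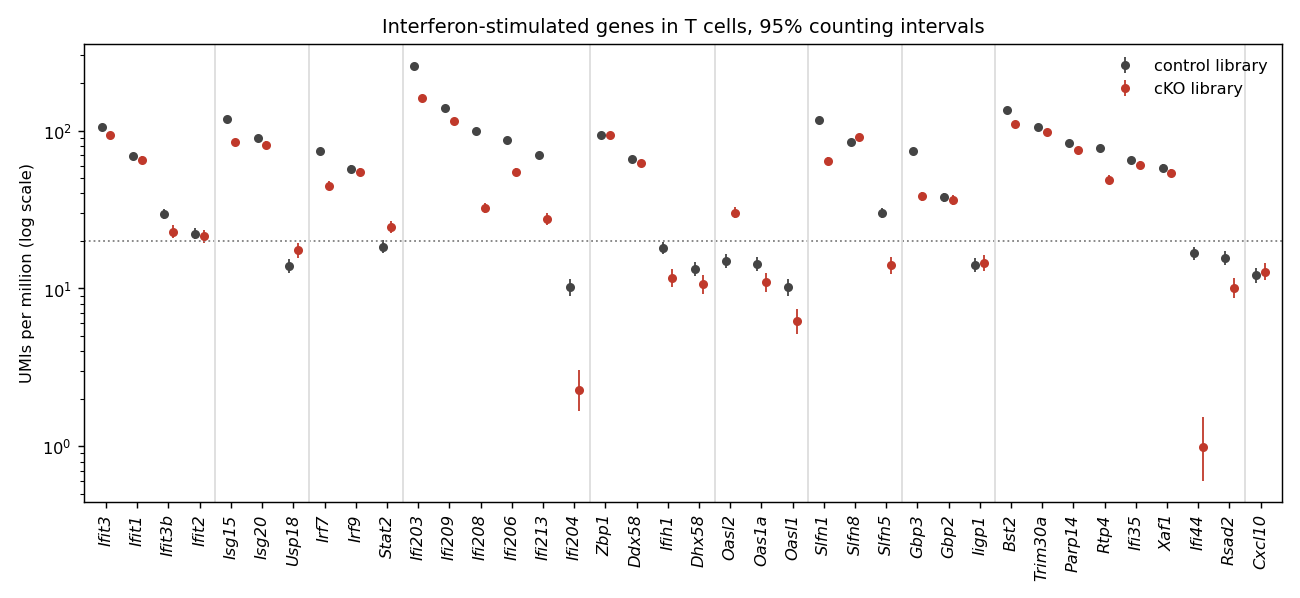
Level of each of the 38 matched members in T cells, in CPM on a log scale, with points for the control and cKO libraries, bars for 95% counting intervals, genes grouped by role and a dotted line at 20 CPM. Ifi208 stands at 99.0 and 32.3 CPM in control and cKO, while Ifit1 stands at 69.0 and 65.1 CPM.

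The PYHIN genes were lower as a family, at 662 and 393 CPM in control and cKO T cells, 1.69-fold (1.64 to 1.73). Ifi208 (ENSMUSG00000066677, chromosome 1, 173673675 to 173698395 on the plus strand), the gene with the lowest ratio among members that reached 20 CPM, stood at 99.0 CPM (95.2 to 103) in control against 32.3 CPM (29.9 to 34.9) in cKO, 3.06-fold lower (2.81 to 3.34). Ifi213 stood at 70.1 and 27.6 CPM, 2.54-fold lower (2.31 to 2.80). The next members, Ifi203 and Ifi206, were lower by less. Ifi203 stood at 256 and 160 CPM, 1.60-fold lower (1.53 to 1.66). Ifi206 stood at 87.8 and 54.5 CPM, 1.61-fold lower (1.5 to 1.73). Ifi209 stood at 139 and 116 CPM and did not meet the rule, so the neighbours on chromosome 1 did not all differ by a like amount. Ifi204 did not reach 20 CPM, with 264 UMIs in control (10.2 CPM) and 46 in cKO (2.28 CPM).

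The Ifit genes, which encode proteins that bind viral RNA and are among the most strongly inducible members, differed little. Together they stood at 226 and 203 CPM in control and cKO T cells. Ifit1 stood at 69.0 and 65.1 CPM, Ifit2 at 22.3 and 21.4 CPM, Ifit3 at 105 and 93.6 CPM and Ifit3b at 29.8 and 23.0 CPM, and none met the rule. Isg15, the ubiquitin-like modifier, stood at 119 (115 to 123) and 84.9 CPM (80.9 to 89.0), 1.40-fold lower (1.32 to 1.49) and short of the rule. The exonuclease gene Isg20 stood at 89.7 and 81.5 CPM. Usp18, which encodes the protease that removes ISG15, stayed under 20 CPM in both, at 13.9 and 17.4 CPM.

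Among the transcription factors of the pathway, Irf7 was lower and the others were not past the rule. Irf7, the factor that amplifies type I interferon production, stood at 73.9 CPM (70.6 to 77.3) in control against 44.8 CPM (42.0 to 47.8) in cKO, 1.65-fold lower (1.52 to 1.79). Irf9, part of the ISRE-binding complex, stood at 57.5 and 54.5 CPM. Stat2, its partner, went the other way at 18.4 and 24.7 CPM, a ratio of 1.34 (1.18 to 1.52).

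The Schlafen family split. Slfn1 stood at 117 and 64.3 CPM, 1.82-fold lower (1.70 to 1.94), and Slfn5 at 30.1 and 14 CPM, 2.15-fold lower (1.88 to 2.48). Slfn8 stood at 84.4 and 91.0 CPM, and its log2 ratio of 0.11 turned to -0.07 with the total that leaves out mitochondrial and ribosomal protein genes. The interferon-induced GTPases split likewise: Gbp3 had 74.3 CPM (71.0 to 77.7) in control against 38.3 CPM (35.6 to 41.1) in cKO, 1.94-fold lower (1.78 to 2.11), whereas Gbp2 stood at 37.8 and 36.3 CPM and Iigp1 at 14.1 and 14.5 CPM.

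Oasl2, of the 2′-5′ oligoadenylate synthetase family, was the member past the rule in the higher direction, at 15 CPM (13.5 to 16.6) in control against 30.1 CPM (27.8 to 32.6) in cKO, a ratio of 2.01 (1.77 to 2.29). Its relatives Oas1a (14.3 and 10.9 CPM) and Oasl1 (10.2 and 6.18 CPM) stayed under 20 CPM.

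The cytosolic sensors that reached 20 CPM showed small differences. Ddx58 stood at 66.4 and 62.1 CPM and Zbp1, a sensor of Z-form nucleic acid, at 94.4 and 93.6 CPM. Ifih1 (18.1 and 11.6 CPM, log2 ratio -0.64) and Dhx58 (13.3 and 10.6 CPM, log2 ratio -0.32) stayed under 20 CPM, so the rule could not call them. Of the other effectors, Rtp4 was lower, at 78.2 and 48.9 CPM, 1.60-fold (1.48 to 1.73). The others that reached 20 CPM did not meet the rule: Bst2 (tetherin) at 135 and 110 CPM, Trim30a at 106 and 98.8 CPM, Parp14 at 83.9 and 75.2 CPM, Ifi35 at 65.3 and 60.9 CPM and Xaf1 at 58.1 and 53.9 CPM. Rsad2 (viperin) stood at 15.6 and 10.1 CPM, and the chemokine gene Cxcl10 at 12.1 and 12.8 CPM.

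Ifi44 had the lowest ratio of any member but stayed under 20 CPM, and was singled out after its values were seen. It had 434 UMIs in 247 of 6000 control T cells (16.8 CPM) and 20 UMIs in 12 of 2821 cKO T cells (0.990 CPM), a ratio of 0.0604 (0.0357 to 0.0923). Fewer of its UMIs were also found in the cKO library in the other classes, with 32 and 2 UMIs in CD8 T cells, 14 and 0 in NK cells, 45 and 28 in B cells (36 and 7.55 CPM), and 3 and 0 in DP cells. With 1 library per genotype, lower expression, a strain difference at the gene and reads not counted on it cannot be told apart.

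The T cells of the libraries differ in subsets, and the module was compared within them. Of 2821 cKO T cells 1445 held a UMI of Fxyd7, against 2 of 6000 control T cells. Among T cells without it, the module stood at 2420 and 1973 CPM in control and cKO, and the members lower in cKO dropped from 9 to 4 (Irf7, Ifi208, Ifi213 and Gbp3), with 4.49% of all genes lower, while 2 were higher (Oasl2 and Iigp1), with 11.3% of all genes higher. Ifi208 was 2.92-fold lower there (2.60 to 3.28). Slfn1, at 117 and 78.9 CPM, no longer met the rule. Against the same control cells, cKO T cells with an Fxyd7 UMI had 11 members lower and 1 higher (Oasl2), with 6.5% of all genes lower and 15.4% higher. Fxyd7 thus moved with part of the difference, and its part was not tested.

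Cells with a UMI of Izumo1r, a surface gene of T cell subsets, gave another picture. There the module stood at 2431 CPM over 2022 control cells and at 2402 CPM over 342 cKO cells, 2 members were lower (Ifi208 and Ifi213, against 5.16% of all genes) and 3 were higher (Usp18, Oasl2 and Iigp1, against 8.24%). Slfn1 stood at 123 and 125 CPM in these cells. Among cells without an Izumo1r UMI the module stood at 2411 and 1758 CPM, with 10 members lower against 5.60% of all genes and 1 higher (Oasl2) against 14.7%. Cells with a UMI of Klrb1c, which encodes NK1.1, had 2239 and 1482 CPM, with 12 members lower against 7.90% and 1 higher against 16.3%, and cells without had 2647 and 1916 CPM, with 11 lower against 4.91% and 1 higher against 13.7%. Cells with a Trav11 UMI had 2204 and 1711 CPM. Ifi208 and Ifi213 were lower in each of these subsets in which members were counted. A UMI of a marker is more readily seen in deeper cells, so cells without one also include cells that missed it.

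In CD8 T cells (834 control and 555 cKO cells) the module was higher in cKO, at 1627 CPM (1592 to 1663) and 1972 CPM (1935 to 2009), a ratio of 1.21 (1.18 to 1.25). This direction turned with the total that leaves out mitochondrial and ribosomal protein genes (log2 ratio -0.02). Of 27 members that reached 20 CPM, 11 were higher and 1 lower, while 22.8% of all genes were higher and 6.62% lower. With that total 7 of 32 were higher and 3 lower, against 9.79% and 14.1% of all genes, and with median-ratio scaling 4 of 24 were higher and 2 lower, against 11.3% and 11.8%. The higher members were the inducible Ifit1 (24.9 and 49.4 CPM), Ifit3 (37.6 and 67.0 CPM), Isg15 (58.3 and 96.8 CPM), Isg20, Usp18, Stat2, Ifih1, Zbp1, Oasl2, Xaf1 and Parp14. Of these, Isg15, Isg20 and Zbp1 no longer met the rule with either of those scalings, nor did Ifit3 with the first. The 4 higher with median-ratio scaling include Ifit1 and Ifit3. Most of Usp18, Stat2, Ifih1, Oasl2, Xaf1 and Parp14 thus did not meet the rule with that scaling. Of the members with the most UMIs, Ifi203 stood at 220 and 217 CPM, Bst2 at 111 and 132 CPM, Ifi209 at 99.7 and 124 CPM, Trim30a at 87.7 and 124 CPM and Slfn1 at 84.9 and 73.1 CPM. Ifi208 was again lower, at 75.6 and 25 CPM, 3.02-fold (2.49 to 3.71). The libraries fill this class with different cells: 64 control and 405 cKO cells held a UMI of the granzyme gene Gzmk. With one, the module stood at 2465 and 1920 CPM, and without one at 1541 and 2125 CPM, so the direction differed between these subsets. The median CD8 T cell also went the other way from the sum, at 1366 and 1316 CPM. Erythroid genes stood at 646 and 1.45 CPM in this class, gut epithelium genes at 7.84 and 115 CPM and myeloid genes at 91.9 and 211 CPM. The erythroid level came from few cells, since 0.839% and 1.08% held such a UMI. Most of the myeloid sum was Cst3, at 82.5 and 163 CPM. Itgam (0.804 and 30.8 CPM), Cd68 (4.63 and 14.8 CPM) and Xcr1 (0 and 0.543 CPM) were also higher in cKO. Lyz2 (0.402 and 0.181 CPM), Csf1r (0.201 and 0 CPM) and Fcgr3 (3.42 and 1.27 CPM) were lower. The part of these 3 gene lists was not tested.

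In NK cells (104 control and 51 cKO cells) the module was 2.47-fold lower in cKO (2.17 to 2.83), at 1799 and 726 CPM. With each cell weighted equally the log2 ratio was -0.68 in place of -1.31. Of 21 members that reached 20 CPM, 14 were lower and 0 higher, while 9.33% of all genes were lower and 7.11% higher. Ifi203 stood at 328 and 141 CPM, Ifi209 at 113 and 29.7 CPM, Bst2 at 111 and 32.2 CPM, Gbp3 at 107 and 62.0 CPM, Trim30a at 94.4 and 52.1 CPM and Zbp1 at 85.1 and 62.0 CPM, of which all but Zbp1 met the rule. The count rests on few UMIs, as with cells thinned to 1500 UMIs 2 members of 24 were lower, with 2.19% of all genes. Of 46 Cxcl10 UMIs in control NK cells, 45 came from 1 cell. Gut epithelium genes stood at 7.40 and 1289 CPM in control and cKO NK cells, and their part was not tested. Without cells that hold a gut transcript 11 of 21 members were lower, against 7.20% of all genes.

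In B cells (306 control and 477 cKO cells) the summed module level was 2256 and 2220 CPM, a ratio of 0.984 (0.943 to 1.03) whose interval includes 1. The median B cell stood at 1990 and 1216 CPM. The log2 ratio of the module was 0.38 with stricter classes, 0.22 with at most 5% mitochondrial UMIs and -0.60 with each cell weighted equally, so no direction is read. Of 34 members that reached 20 CPM, 8 were lower and 3 higher, while 5.71% of all genes were lower and 14.9% higher. Slfn1 was lower at 77.7 and 30.8 CPM, 2.53-fold (1.91 to 3.34), and Ifi208 at 49.7 and 15.9 CPM, 3.12-fold (2.15 to 4.54), whereas Usp18, Oas1a and Oasl2 were higher. Ifi203 stood at 219 and 287 CPM, Bst2 at 152 and 198 CPM, Trim30a at 134 and 174 CPM, Ifi209 at 146 and 167 CPM, Isg15 at 117 and 105 CPM and Ifi35 at 79.3 and 85.0 CPM. This class goes against its name in part, since 91.2% of the control B cells and 46.1% of the cKO B cells held a UMI of a T cell gene and gut genes stood at 10.4 and 4096 CPM. Their part was not tested, and with stricter classes 10 of 33 members were higher and 5 lower, against 12.3% and 6.52% of all genes.

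In DP cells (58 control and 57 cKO cells) the module was 2.65-fold lower in cKO (2.21 to 3.19), at 1804 and 680 CPM. Ets1 stood at 489 and 658 CPM there, and its part was not tested. Of 26 members that reached 20 CPM, 13 were lower and 0 higher, while 4.24% of all genes were lower and 6.91% higher. Ifi203 stood at 192 and 62.2 CPM, Bst2 at 154 and 65.8 CPM, Zbp1 at 104 and 32.9 CPM, Rtp4 at 99.0 and 21.9 CPM, Ifi209 at 93.5 and 54.8 CPM and Trim30a at 71.5 and 80.4 CPM. Each sum holds at most 35 UMIs. The libraries fill this class with unlike cells. NK cell genes stood at 401 CPM in these control and 43.9 CPM in these cKO cells. DP thymocyte genes stood at 2810 and 4695 CPM and B cell genes at 616 and 1400 CPM. A UMI of Cd8a or Cd8b1 was held by 67.2% and 96.5% of the cells. The part of these gene lists was not tested. Stricter classes kept 21 control and 46 cKO cells. With stricter classes 4 members were lower, with 3.47% of all genes, and with cells thinned to 1500 UMIs 3 were, with 1.90% of all genes.

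**Figure D2:**
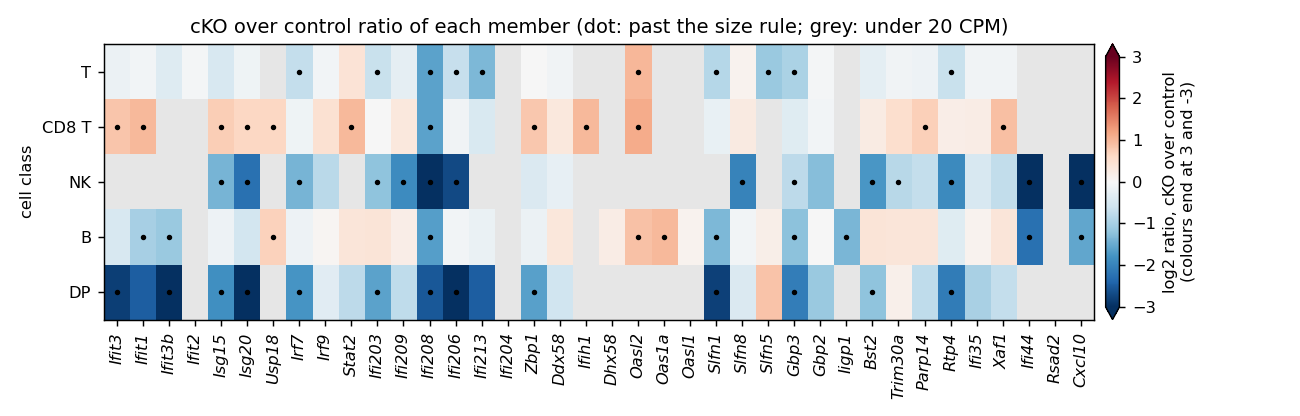
Colour gives the log2 ratio, cKO over control, of each member (columns) in each cell class (rows), with a dot where the size rule was met and grey where a member stayed under 20 CPM. Ifi208 is blue with a dot in all 5 classes, and the CD8 T row has 11 of its 12 dots on red.

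Across the 5 classes, Ifi208 met the rule in the lower direction in all 5 and Gbp3 in 4. Ifi203, Ifi206, Irf7, Rtp4 and Slfn1 did so in 3 classes, and 16 members did so in none. Of those 16, Ifi204 and Rsad2 reached 20 CPM in no class, and Dhx58, Ifit2, Ifih1, Oas1a and Oasl1 in 1. The share of all genes lower in several classes was not counted, so these counts have no background beside them. The NK ratio of Ifi208 rests on 19 UMIs in control and 1 in cKO, 0.103 (0.00170 to 0.444). The DP ratio rests on 13 and 3 UMIs, 0.172 (0.028 to 0.558).

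**Figure D3:**
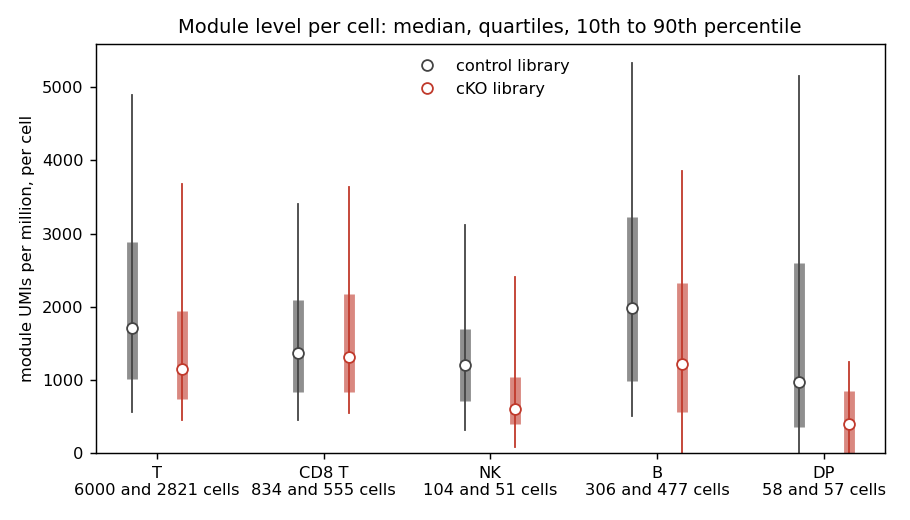
Module level in single cells, in CPM, of each class, with an open circle for the median, a thick bar for the quartiles and a thin line from the 10th to the 90th percentile. The T cell median is 1712 in control and 1155 in cKO, and the CD8 T medians are 1366 and 1316.

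Single T cells ranged from no module transcript to many. To compare cells at equal depth, the 4179 control and 2716 cKO T cells with at least 1500 UMIs were thinned to 1500, which left out 1821 and 105 cells. A cell was called high-responder when it kept at least 2 UMIs of Ifit1, Ifit3 and Ifit3b together, tonic when it kept 0, and between when it kept 1. These calls cut a continuous range, not cell types. The share of high-responder cells was 6.70% in control (5.96 to 7.50, 280 cells) against 5.71% in cKO (4.86 to 6.65, 155 cells), shares whose intervals overlap. With Isg15, Rtp4 and Usp18 in place of the Ifit genes the shares were 6.92% (6.16 to 7.73) and 4.20% (3.47 to 5.02), whose intervals do not overlap. Isg15 and Rtp4, though not Usp18, were themselves lower over all cKO T cells, so these shares repeat part of that difference. Without thinning the shares were 11.5% and 16.4%, at the unequal depths above. Tonic cells made up 84.6% and 85.1%. T cells with no module UMI at all in 1500 made up 10.9% in control (9.94 to 11.8), against 18.7% in cKO (17.3 to 20.3). In CD8 T cells, high-responder cells made up 2.49% (1.46 to 3.96) and 4.55% (2.97 to 6.65). In B cells they numbered 5 of 199 and 6 of 381. In NK cells they numbered 1 of 85 and 0 of 38, and in DP cells 1 of 38 and 0 of 57. By a floor of 3 counts, those counts of 0 allow shares of up to 7.89% and 5.26%, and the Clopper-Pearson intervals reach 9.25% and 6.27%.

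The other 35 members, which do not set these calls, were then read from the full counts. In control T cells 34 of the 35 were higher in high-responder than in tonic cells by the size rule, where 4.69% of all genes were higher and 3.33% lower. In cKO T cells it was 34 of the 34 that reached 20 CPM, where 5.32% of all genes were higher and 4.25% lower. Members under 20 CPM in tonic cells reached that level only through the high-responder cells. In control these were Cxcl10, Rsad2, Usp18, Ifi204, Oasl1, Slfn5, Ifi44, Iigp1, Oasl2, Dhx58, Ifih1, Oas1a, Stat2 and Ifit2. In cKO Ifi213 was a further one, while Ifi44 stayed under that level in both states. Such members could not be called lower, so their calls are no support for the count. This holds for all the steepest members named below but Isg15. Cells of 1 library are not replicates, so this is a description. The median log2 ratio was 2.30 in control and 2.55 in cKO. The steepest member in control was Cxcl10, at 2.24 CPM in tonic and 142 CPM in high-responder cells, a ratio of 62.6 (45.8 to 88.7). It was followed by Rsad2 (3.56 and 169 CPM, 47.3), Usp18 (5.22 and 117 CPM, 22.4) and Ifi204 (4.10 and 81.7 CPM, 19.9). Next came Oasl1 with a ratio of 18.6, Slfn5 with 17.0, Isg15 with 14.2 and Ifi44 with 12.7.

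The flattest members were already well expressed in tonic cells. In control, Gbp3, at 71.3 CPM in tonic and 101 CPM in high-responder cells, had a ratio of 1.42 (1.19 to 1.67) and was the exception to the rule. It was followed by Irf9 (2.55), Ifi203 (222 CPM in tonic and 591 CPM in high-responder cells, 2.66) and Ifi35 (2.74). In the cKO library the order was alike at its ends, with Cxcl10 at 99.3 and Rsad2 at 63.8. Ifi208 had a ratio of 3.66 in control and 8.33 in cKO, and Ifi213 of 4.56 and 7.88.

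**Figure D4:**
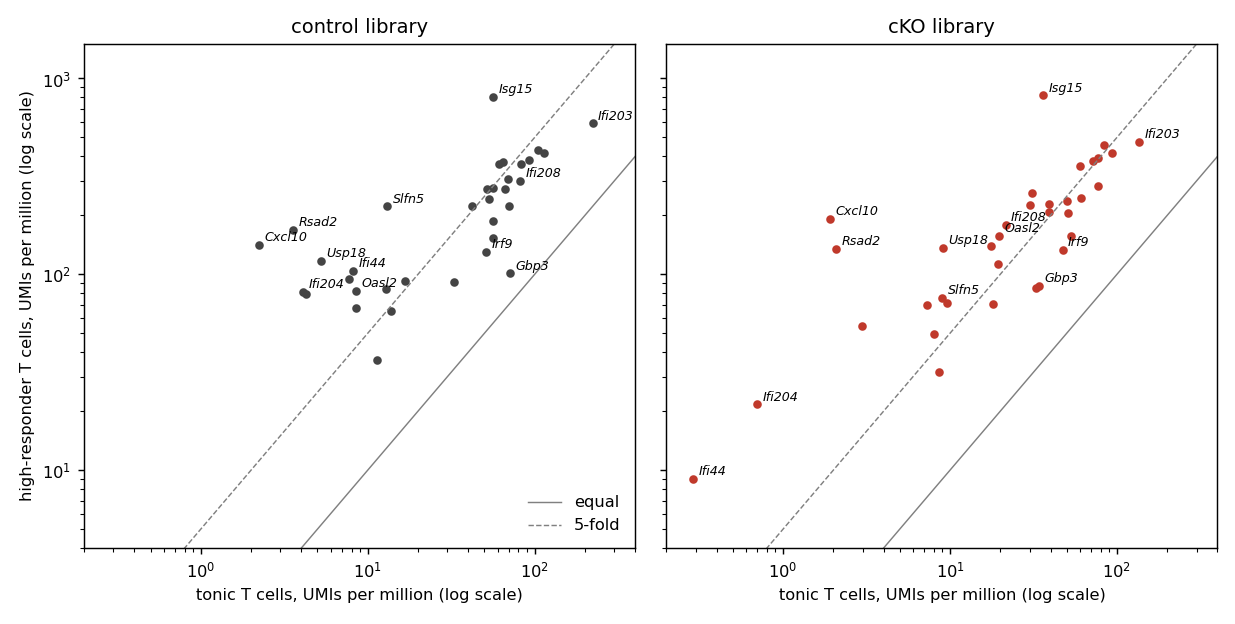
Level of the 35 members that do not set the calls in tonic (x axis) and high-responder (y axis) T cells, in CPM on log scales, for the control (left) and cKO (right) libraries, with a solid line at equality and a dashed line at 5-fold. Cxcl10 and Rsad2 lie far above the dashed line, and Gbp3 lies nearest to equality in control.

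The genotype difference was then read within each state. In tonic cells the other 35 members summed to 1678 CPM (1661 to 1696) for control and 1259 CPM (1243 to 1276) for cKO, 1.33-fold lower (1.31 to 1.36). In cells between they summed to 3474 and 2364 CPM, 1.47-fold lower (1.41 to 1.53). In high-responder cells they summed to 7956 CPM (7817 to 8098) and 7156 CPM (7000 to 7316), 1.11-fold lower (1.08 to 1.14). The difference between these ratios was not tested.

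Among tonic cells 21 of the 35 reached 20 CPM, of which 9 were lower and 0 higher, while 5.26% of all genes were lower and 13.1% higher. Ifi208 stood there at 81.8 and 21.5 CPM, 3.80-fold lower (3.40 to 4.27), Ifi213 at 52.9 and 17.7 CPM, and Gbp3 at 71.3 and 34.3 CPM. The others were Isg15, Irf7, Ifi203, Ifi206, Slfn1 and Rtp4. Isg15 stood at 56.6 and 36 CPM in tonic cells, and at 805 and 822 CPM in high-responder cells. Among the cells between, 14 of 32 were lower and 0 higher, while 6.87% of all genes were lower and 16.3% higher.

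Among high-responder cells 6 of 35 were lower and 2 higher, while 5.94% of all genes were lower and 16.0% higher. The lower members were Slfn5 (223 and 75.9 CPM), Ifi204 (81.7 and 21.7 CPM), Slfn1 (385 and 236 CPM), Ifi208 (299 and 179 CPM), Ifi213 (241 and 139 CPM) and Ifi44 (104 and 9.04 CPM). Stat2 (65.0 and 113 CPM) and Oasl2 (82.4 and 157 CPM) were the higher members. Rtp4 stood at 277 and 259 CPM and Bst2 at 431 and 456 CPM. In these cells gut epithelium genes stood at 5.15 CPM in control against 54.2 CPM in cKO, against 6.24 and 901 CPM in tonic cells.

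**Figure D5:**
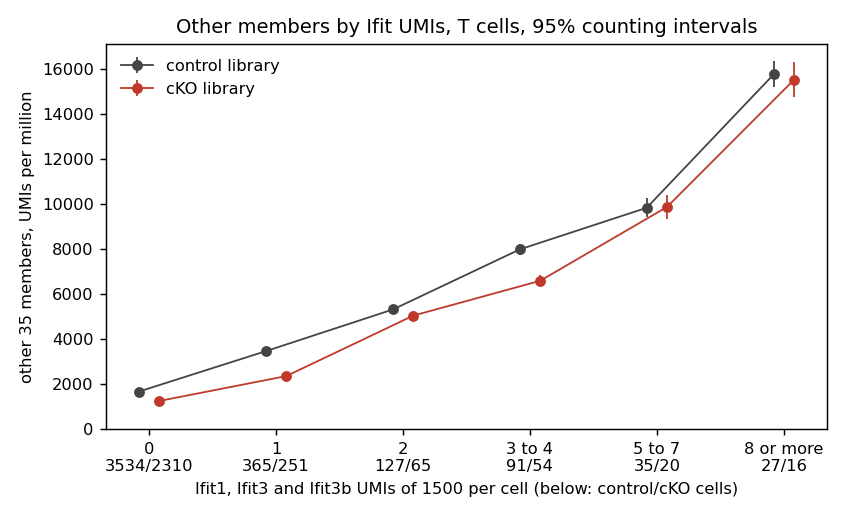
Summed level of the other 35 members in T cells, in CPM, by the number of Ifit1, Ifit3 and Ifit3b UMIs kept in 1500, with bars for 95% counting intervals and the cell numbers of both libraries under each bin. The level goes from 1678 and 1259 CPM in control and cKO at 0 Ifit UMIs to 15769 and 15528 CPM at 8 or more, a bin with 27 and 16 cells.

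The level of the other members was higher at each step in Ifit UMIs in both libraries. In control it was 1678 CPM at 0 UMIs, 3474 at 1, 5324 at 2, 7994 at 3 to 4, 9844 at 5 to 7 and 15769 at 8 or more. In cKO it was 1259, 2364, 5049, 6598, 9880 and 15528 CPM. The last bin holds 27 control and 16 cKO cells. The intervals of the libraries lay apart at 0, at 1 and at 3 to 4 UMIs. They overlapped at 2 and at 5 and above. The median cell of the last bin had 14 of the other 35 members among its 1500 UMIs in control and 12.5 in cKO, against 2 and 1 at 0 UMIs.

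Genes outside the module were ranked by the same ratio of high-responder to tonic cells in control T cells. Only genes at 50 CPM or more in high-responder cells entered the ranking. Cmpk2, a nucleotide kinase gene, led with 2.83 CPM in tonic and 60.5 CPM in high-responder cells, a ratio of 21.3 (15.3 to 30.2). After it came A930037H05Rik with 7.03, Phf11c with 6.96, Tor3a with 6.51, Gbp6 with 6.09, Oas3 with 5.72, the PYHIN gene Ifi214 with 5.31, Eif2ak2 (the kinase PKR) with 5.31, Herc6 with 5.12 and Trim30d with 5.10. Members filled 9 of the first 10 ranks and 22 of the first 40, and made up 34 of the 2525 genes ranked. Genes under 20 CPM in tonic cells entered only through the high-responder cells and could only rank as higher, so their ranks are no support. Among the first 10 ranks this holds for all genes but Isg15. In the cKO library Cmpk2 had a ratio of 15.2 and Oas3 one of 8.88. Ifi214 was not lower in cKO, at 31.4 and 33.3 CPM in tonic cells and at 167 and 183 CPM in high-responder cells.

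Of the rest of the pathway in T cells, Ifngr1, Ly6c2 and Ifitm3 were past the size rule, on lists chosen with earlier results known. Of 10 interferon genes, 8 type I and III genes had 0 UMIs in both libraries, which at the floor of 3 counts allows up to 0.116 CPM in control against 0.148 CPM in cKO. Ifnk had 1 UMI in all. Ifng, the type II interferon, stood at 131 and 91.2 CPM, a ratio of 0.695 (0.656 to 0.736). Of the receptors, Ifnar1 stood at 53.6 and 61.9 CPM, Ifnar2 at 82.8 and 92.9 CPM and Ifngr1, the ligand-binding chain for interferon gamma, at 383 and 948 CPM, the single one of 4 that was past the rule, with a ratio of 2.47 (2.41 to 2.53).

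None of the receptor kinase genes Jak1, Jak2 and Tyk2 met the rule, and Jak1 stood at 379 and 481 CPM. None of the 6 negative regulators met it, with Ptpn6 at 328 and 374 CPM, Socs1 at 120 and 119 CPM and Ptpn2 at 90.7 and 102 CPM, nor did any of the 4 upstream sensing genes that reached 20 CPM, among them Tmem173 (STING) at 56.6 and 39.6 CPM, Irf3 at 43.7 and 55.4 CPM and Tbk1 at 32.9 and 45.9 CPM.

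Of 24 other type I interferon-induced genes that reached 20 CPM, 2 were lower and 0 higher, against 5.09% and 13.2% of all genes. They were Ly6c2 (794 and 497 CPM) and Ifitm3 (31.0 and 20.2 CPM). Ly6e stood at 1424 and 1465 CPM and Ifi27l2a at 788 and 724 CPM. Of 14 genes induced by interferon gamma, 0 met the rule in either direction, with the class I genes H2-K1 at 2421 and 2659 CPM, H2-D1 at 2150 and 2675 CPM and B2m at 2149 and 2371 CPM.

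The same lists were read between states, where genes under 20 CPM in tonic cells again could not be called lower. Of 27 other type I interferon-induced genes, 25 were higher in high-responder than in tonic T cells in each library, and of 17 genes induced by interferon gamma 13 were, against 4.69% of all genes in control and 5.32% in cKO. With tonic cells first, Ifng stood at 129 and 140 CPM in control and 93.2 and 82.3 CPM in cKO. Jak1 stood at 383 and 391.8 CPM in control and at 482 and 458 CPM in cKO. Ly6c2, which was lower in cKO over all T cells, stood at 765 and 891 CPM in control and at 504 and 466 CPM in cKO.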

How the data were processed

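RNA was measured in single YFP+ thymus cells of 2 libraries, 1 per genotype. The authors deposited whole-number UMI counts per gene and cell, and per the submitters' processing notes they used Cell Ranger 2.1.1 on mm10, while the matrix headers name software version 3.0.0. The gene annotation is not given in the sources used here. Libraries were read at the 3′ end, so levels per gene are not divided by length.

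Cells were kept at 500 genes or more and no more than 10% mitochondrial UMIs. The T class needed a UMI of Cd3d, Cd3e or Cd3g and none of Cd8b1, Rag1 or Cd79a. CD8 T cells needed Cd8b1 and CD3 without Rag1 or Cd79a, NK cells Ncr1 without CD3, Rag1 or Cd79a, B cells Cd79a without Rag1, and DP cells Rag1. By this rule 93 control and 1942 cKO cells (1.26% and 32.9%) had no class. No doublet caller was run, so doublets remain.

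UMIs were summed per library and class and scaled to a common total over all genes (CPM). Intervals are at 95% and exact: conditional binomial for ratios, Poisson for levels and Clopper-Pearson for shares. For the ratio itself, but not for its interval, 0.5 UMIs went onto each sum. The floor for a count of 0 was 3 counts. The size rule was tested on simulated data with known folds. The members and lists were chosen with earlier results of these data known. All members are reported: in T cells those at 20 CPM with both levels and the 12 largest ratios with intervals, in the other classes the 6 members with the most UMIs, and between states the 8 highest and 4 lowest ratios in control. Outside the module the 10 genes with the highest ratio at 50 CPM or more in high-responder cells were named, and up to 3 genes per pathway list, with a few further members of those lists named after their values were seen. The plan counted 36 members that do not set the states, and 35 were measured, since Mx1 was not analysed here. Coordinates come from GENCODE vM21 on GRCm38. Statistics used scipy 1.17.1 with numpy 2.4.6, tables pandas 2.3.3 and figures matplotlib 3.10.9, under Python 3.11.15. Of 12 listed upstream sensing genes 10 were matched and the others were not analysed here. One measured gene of the pathway lists is not reported here.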

Additional observations from a re-analysis of the deposited data

Results flagged for a closer look

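The module stood on opposite sides of equality in different classes, and none of these differences was tested. Its log2 ratio, cKO over control, was -0.38 in T cells and 0.28 in CD8 T cells. Against the same 0.28 in CD8 T cells it was -1.31 in NK cells and -1.41 in DP cells. The CD8 T value changed sign with another scaling, given under the processing.

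Of single members, 5 were past the size rule in opposite directions in different classes, again untested. The log2 ratio of Ifit1 was 0.98 in CD8 T cells and -0.99 in B cells. That of Ifit3 was 0.83 in CD8 T and -2.83 in DP cells, the latter from 16 and 3 UMIs. Isg15 had 0.73 in CD8 T, -1.39 in NK and -1.84 in DP cells. Isg20 had 0.62 in CD8 T, -2.24 in NK (28 and 4 UMIs) and a fitted -5.34 in DP cells, the last from 13 and 0 UMIs and so no measure of size. Zbp1 had 0.81 in CD8 T and -1.63 in DP cells. The CD8 T side of these depends on the scaling. With the total without mitochondrial and ribosomal protein genes Ifit1 still met the rule there (0.68), while Ifit3 (0.53), Isg15 (0.43), Isg20 (0.32) and Zbp1 (0.51) did not. With median-ratio scaling Ifit1 (0.75) and Ifit3 (0.60) did, while Isg15 (0.50), Isg20 (0.39) and Zbp1 (0.58) did not.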

How the results depend on the processing

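No paired analysis was possible because each genotype has 1 library, and no library could be left out. Of the alternatives, 65 values stayed within counting error or within 1.5 times the main count, 36 moved and 1 reversed. The log2 ratio of the module in T cells was below 0 in all 12 alternatives, from -0.56 to -0.26. It moved from -0.38 to -0.34 with at most 5% mitochondrial UMIs, -0.56 with the total without mitochondrial and ribosomal protein genes, -0.53 with median-ratio scaling, -0.34 in cells thinned to 1500 UMIs, -0.35 with each cell weighted equally and -0.40 without Ifit1, Ifit3 and Ifit3b. For alternatives chosen after seeing the data it was -0.26 without the PYHIN members and -0.29 in T cells without an Fxyd7 UMI. In CD8 T cells it reversed to -0.022 with the total without mitochondrial and ribosomal protein genes. It was 0.046 with median-ratio scaling, 0.37 thinned, 0.36 with stricter classes, 0.35 without cells holding a gut transcript and 0.44 without the PYHIN members. In NK cells it was -0.68, and in DP cells -1.81, with each cell weighted equally, and it was below 0 in all 11 alternatives in both. In B cells it was 0.22 with at most 5% mitochondrial UMIs, 0.086 with at least 1000 genes, -0.11 with median-ratio scaling, 0.11 in cells of at least 3000 UMIs, -0.13 thinned, 0.38 with stricter classes and -0.60 with each cell weighted equally, so no direction is read there. The cause was not tested.

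The 9 lower members in T cells (of 28, with 5.09% of all genes) became 3 of 28 at a fold of 2 (2.11% of all genes), 14 of 38 at 10 CPM (5.58%) and 4 of 29 in T cells without an Fxyd7 UMI (4.49%). The 1 higher member became 0 of 22 at 50 CPM (13.4% of all genes) and 2 of 29 without an Fxyd7 UMI (11.3%). High-responder shares in control and cKO were 15.4% and 14.9% at 1 UMI, 3.66% and 3.31% at 3 UMIs, 10.7% and 9.17% thinned to 3000 UMIs, and 11.5% and 16.4% without thinning, where the order turned. With Isg15, Rtp4 and Usp18 in place of the Ifit genes they were 6.92% (6.16 to 7.73) and 4.20% (3.47 to 5.02), which do not overlap. These shares repeat in part the lower level of Isg15 and Rtp4 over all cKO T cells. Depth limits NK and DP cells most, with 293 and 186 module UMIs in cKO.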
